A study of Myzus persicae with 8 samples.

Results

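The contigs described here stand for enzymes and carriers of fat metabolism and for the primer of the glycogen store in the green peach aphid *Myzus persicae*. They are contig5108 (fatty acid synthase), contig691 (trifunctional enzyme beta subunit), contig1524 (a very long chain acyl-CoA enzyme), contig2165 (fatty acid binding protein) and contig7425 (similar to glycogenin). They were taken by their probe names, which gave 8 probes of the 14628 on the array and 5 contigs of 10489. Of these, contig691, contig1524 and contig2165 had 2 probes each (suffix a and b), and contig5108 and contig7425 had 1. A contig is an assembled transcript sequence, and each name is that of its best BLAST hit in the study's list of features up-regulated in genotype S. The contigs were therefore selected on their insecticide response in S, and their S values are given as a description without a test. The arrays of the other genotypes were not used to choose them.

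Aphids feed on phloem sap, which is rich in sugar, and store energy as fat and glycogen. Fatty acid synthase joins acetyl units into long-chain fatty acids. Stored fatty acids are broken down in mitochondria by beta-oxidation, in which a very long chain acyl-CoA dehydrogenase takes the first step and the trifunctional protein the last ones, with the thiolase activity on its beta subunit. Fatty acid binding proteins carry fatty acids in the cytosol, and glycogenin starts a new glycogen particle by adding glucose to itself. These roles are best known from mammals, and the description of contig1524 does not say which very long chain acyl-CoA enzyme it is.

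The study asked how aphids that differ in resistance respond to pirimicarb, a carbamate that inhibits acetylcholinesterase. The tested aphids were sprayed with 1 ml of pirimicarb at 20 ppm and the controls with water. Whole wingless adults that were alive after 24 hours were frozen, about 40 per RNA extract. The titles name water for the controls and a characteristic of the labels names acetone plus water, so an effect of the solvent cannot be told apart from that of pirimicarb. Genotype S carried no known resistance mutation, SR was heterozygous for kdr, a sodium channel change, and MR was heterozygous for kdr and for MACE, a modified acetylcholinesterase that pirimicarb inhibits poorly. In the study's separate leaf-dip bioassay, 20 ppm was above the median lethal concentration of S and SR and far below that of MR. The insecticide-treated RNA is thus that of survivors, and survival of some aphids cannot be told apart from a change within aphids. Each genotype was 1 clonal lineage aged 7 days at treatment, so a difference between genotypes cannot be told apart from a difference between lineages. Every array compared insecticide-treated with water-treated RNA of 1 genotype, one labelled with Cy5 and the other with Cy3. The dye of the insecticide-treated RNA was Cy5 in all A replicates and in replicate C of S, and Cy3 in all B replicates. The 8 arrays gave 3 replicates for S, 2 for SR and 2 for MR, because 2 of the 3 MR arrays were described as repeats of replicate A and were averaged. The title of the repeat names water-treated RNA of another letter. One label of S replicate A reads SR, but the array was kept in S after its title and description. Ratios are log2 of insecticide over water after loess normalization, so 1 is a doubling of the signal, and the ratio of a contig is the mean over its probes.

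All arrays were on 1 slide and scanned together. Between 87.1% and 93.4% of the features were well above background in both channels of an array, and 0 spots were saturated. Over all probes, the log2 ratios of the first MR replicate A array correlated at 0.98 with its repeat and at -0.55 with MR replicate B, which had the dyes exchanged. Both SR replicates correlated at 0.08. S replicate A correlated at 0.39 with SR replicate A and at -0.47 with the first MR replicate A array, in the same dye orientation. Probes share arrays and are not independent replicates. The muscle, gut and salivary contigs of the study's S list were detected in water-treated aphids on 4 to 8 of the 8 arrays.

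In S, the 5 contigs had mean log2 ratios between 0.98 and 1.24, and each was above 0 in every replicate, values on which they had been selected. Of the 8 probes, 7 had a log2 ratio over 1 at an unadjusted P under 0.05, as did 1.71% of all probes in S. Fatty acid synthase (contig5108) had log2 ratios of 1.75, 0.53 and 0.90 in S replicates A, B and C. The trifunctional enzyme beta subunit (contig691) had 1.36, 0.73 and 0.83. The very long chain acyl-CoA enzyme (contig1524) had 2.02, 0.44 and 0.73. In all of these, replicate A was the highest and replicate B the lowest. The fatty acid binding protein (contig2165) had 1.81, 0.33 and 1.56 in the same order, so that replicate C was close to A, and the glycogenin-like contig (contig7425) had 1.93, 0.30 and 0.87. Just inside the limit lay probe M_persicae7425a at 1.04, probe M_persicae1524a at 1.04 and probe M_persicae5108a at 1.06. Just outside lay probe M_persicae691a at 0.83, which the study's list does not hold, whereas its partner M_persicae691b was at 1.12. Without S replicate A, 0 of the 8 probes were past both limits, and the median of the 5 contigs was 0.71 in place of 1.06.

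In S, the water-treated channel varied more than the insecticide-treated one for contig5108, contig691, contig1524 and contig2165. For the very long chain acyl-CoA enzyme, contig1524, the insecticide-treated level in S replicates A, B and C was 10.22, 10.18 and 10.46 on the log2 scale, against 8.19, 9.74 and 9.73 in water-treated aphids. The fatty acid binding protein, contig2165, likewise had 13.81, 13.58 and 13.84 in insecticide-treated S aphids, against 12.00, 13.25 and 12.28 in water-treated ones. The SD over the S replicates was 0.16 in the insecticide-treated and 0.89 in the water-treated channel for contig1524, and 0.14 and 0.66 for contig2165. The glycogenin-like contig varied alike in both, with 0.41 and 0.42. Over all contigs the median SD in S was 0.14 in the insecticide-treated and 0.25 in the water-treated channel. The water-treated level of S replicate A was the lowest of the 7 replicates for contig5108, contig691, contig1524 and contig7425. This level is part of the ratio on which the contigs were selected. On that array, the water-treated signal of 4 of the 8 probes was not well above background, namely that of M_persicae5108a, M_persicae1524a, M_persicae1524b and M_persicae7425a, as was that of 12.3% of all probes. Probe M_persicae5108a, for example, had a median signal of 516 in the insecticide-treated channel over a background of 59, and of 100 in the water-treated channel over a background of 55. With spots not well above background left out, the S ratio was 0.58 for contig1524 and 0.59 for contig7425. For contig5108 it was 0.90, from replicate C alone, because its water-treated spot in S replicate B also fell short.

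**Figure D1:**
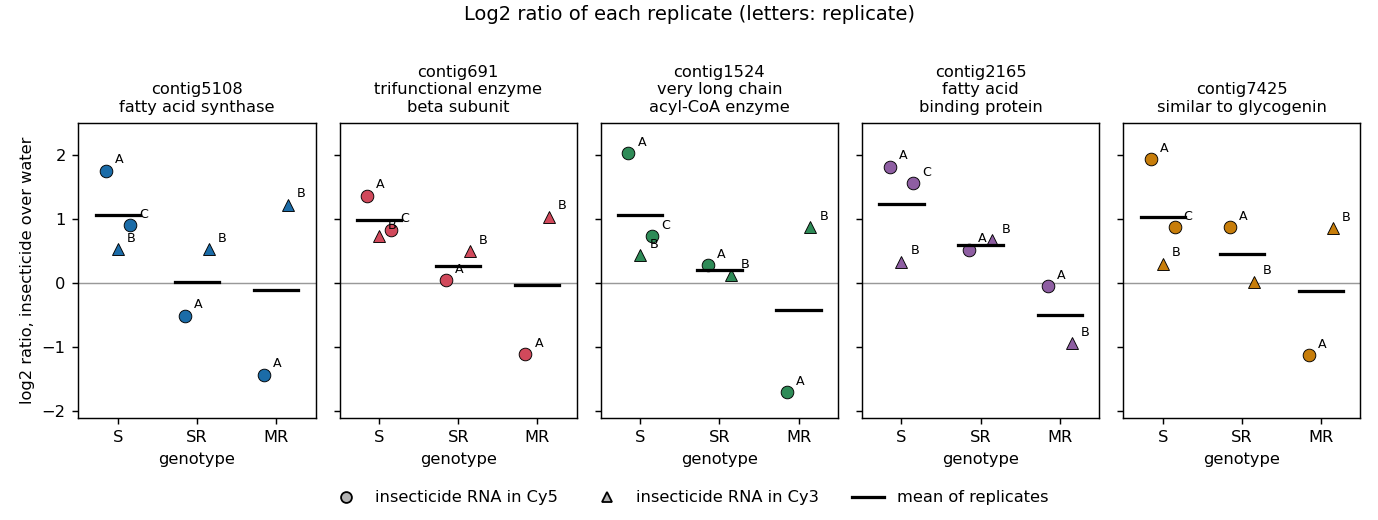
Log2 ratio of insecticide over water (vertical axis) of each contig in genotypes S, SR and MR, with 1 symbol per replicate, circles for insecticide-treated RNA in Cy5, triangles for Cy3, and bars for the means. All S symbols lie above 0, and in MR replicates A and B lie on opposite sides of 0 for every contig but contig2165.

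**Figure D2:**
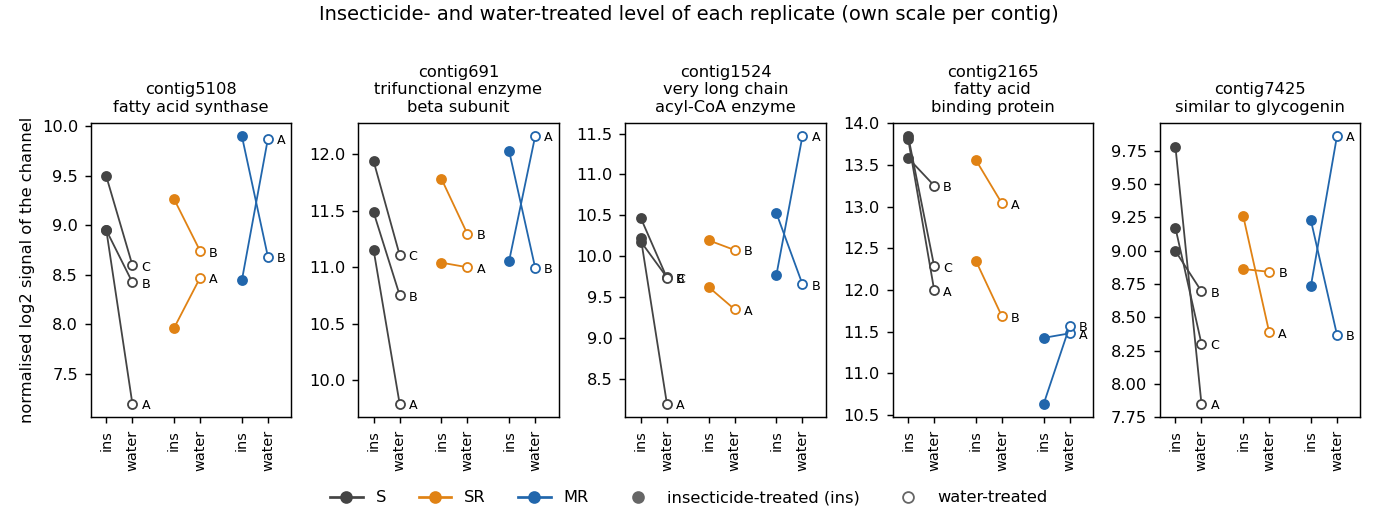
Normalised log2 signal (vertical axis, own scale for each contig) of the insecticide-treated channel (filled) and the water-treated channel (open) of each replicate, joined by a line, for S, SR and MR. The water-treated level of S replicate A is the lowest in all panels but that of contig2165, where both MR water-treated levels, 11.48 and 11.57, are the lowest.

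In SR, the kdr genotype, 0 of the 8 probes were past both limits in either direction. Over all probes, 0.164% were called higher and 0.957% lower, so that 0 of 8 is near the background. The adjusted p of limma was 0.9998 for all 8 probes, as low as that of any probe on the array, and an unadjusted P under 0.05 was found for 296 of all probes. The fatty acid binding protein, contig2165, had log2 ratios of 0.52 and 0.67 in SR replicates A and B, a mean of 0.59 ± 0.10 (SD, n = 2). Its replicates were closer together than those of the median contig, with a distance of 0.15 against 0.36. Probe M_persicae2165b had 0.60 with a 95% interval of 0.0030 to 1.21, and was the 1 probe of the 8 with an unadjusted P under 0.05, while probe M_persicae2165a had 0.58 with an interval of -0.0067 to 1.17. The glycogenin-like contig, contig7425, had 0.88 and 0.02, a mean of 0.45 ± 0.60. Its ratio thus came almost wholly from replicate A.

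The trifunctional enzyme beta subunit, contig691, had log2 ratios of 0.04 and 0.49 in SR replicates A and B, with a mean of 0.27 ± 0.32 (SD, n = 2). The very long chain acyl-CoA enzyme, contig1524, had 0.27 and 0.12, with a mean of 0.20 ± 0.11. Fatty acid synthase, contig5108, had -0.51 and 0.52, with a mean of 0.01 ± 0.73, and its SR replicates lay on opposite sides of 0. In SR replicate A its insecticide-treated spot was not well above background. The sign of its mean changed under other background corrections, to -0.09 with plain subtraction and -0.03 with none. In both SR replicates 7 of the 8 probes were above 0, as were 21.8% of all probes. The 95% intervals of the 8 probes reached between 0.78 and 1.27 at the upper end, so a doubling was outside the interval for M_persicae691a, M_persicae691b, M_persicae1524a, M_persicae1524b and M_persicae5108a and inside it for M_persicae2165a, M_persicae2165b and M_persicae7425a.

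In MR, the kdr and MACE genotype, the replicates had opposite signs for 4 of the 5 contigs. Fatty acid synthase, contig5108, had log2 ratios of -1.43 in MR replicate A and 1.22 in replicate B. The trifunctional enzyme beta subunit, contig691, had -1.11 and 1.03, and the very long chain acyl-CoA enzyme, contig1524, had -1.70 and 0.87. The glycogenin-like contig, contig7425, had -1.13 and 0.86. The means were small beside their spread, -0.11 ± 1.87 for contig5108, -0.04 ± 1.51 for contig691, -0.41 ± 1.82 for contig1524 and -0.13 ± 1.40 for contig7425 (SD, n = 2). Both arrays of MR replicate A gave nearly the same values, for instance -1.51 and -1.35 for fatty acid synthase and -1.73 and -1.66 for the very long chain acyl-CoA enzyme.

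The sign in MR moved with the dye. On all 3 MR arrays, the Cy3 channel was the brighter one for these 4 contigs after normalization, whichever RNA it held. Probe M_persicae5108a had a median signal of 275 in the insecticide-treated channel (Cy5), against 1534 in the water-treated channel (Cy3), on the first array of MR replicate A. On the array of MR replicate B it had 2211 in the insecticide-treated channel (Cy3), against 394 in the water-treated channel (Cy5). Probe M_persicae691b had 2523 in the insecticide-treated channel, against 9075.5 in the water-treated channel, on the first array. In replicate B it had 11329 in the insecticide-treated channel, against 2478 in the water-treated channel. These signals are not normalized, and Cy3 was also the brighter dye over all probes on the MR arrays. In replicate B the median signal over background was 117.2 in Cy3 and 47.4 in Cy5, so the raw contrast exceeds the normalized one. In all, 6 of the 8 probes were below 0 in replicate A and above 0 in replicate B, as were 38.3% of all probes, and 37.9% of all probes showed the opposite exchange. The distance between MR replicates A and B was 2.65 for contig5108, 2.57 for contig1524, 2.14 for contig691 and 1.98 for contig7425, against a median of 0.68 over all contigs. These distances were larger than those of 97.8%, 97.5%, 94.8% and 93.2% of the contigs. The part of the dye in these ratios was not tested within MR, where replicate and dye cannot be told apart.

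The fatty acid binding protein had another pattern in MR. Contig2165 had log2 ratios of -0.05 in MR replicate A and -0.93 in replicate B, a mean of -0.49 ± 0.62 (SD, n = 2). In replicate A probe M_persicae2165a was at -0.16 and probe M_persicae2165b at 0.05. The distance between the replicates, 0.88, was larger than that of 60.4% of the contigs. None of the 8 probes was past both limits in MR, where 0.0137% of all probes were called higher and 0.622% lower. The adjusted p of limma was 0.99997 for each of the 8, against a lowest value of 0.42 over the array, and 0 of them had an unadjusted P under 0.05, against 93 of all probes. The 95% intervals of the 8 probes ran from between -2.03 and -1.39 to between 0.52 and 1.45, so only those of M_persicae2165a and M_persicae2165b left out a doubling. With 1 MR replicate left out, in a fit that assumes the lone replicate to vary like the other genotypes, 5 of the 8 probes were past both limits without replicate B, below 0, as were 5.68% of all probes. Without replicate A, 1 of the 8 was past them, above 0, as were 0.896% of all probes.

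**Figure D3:**
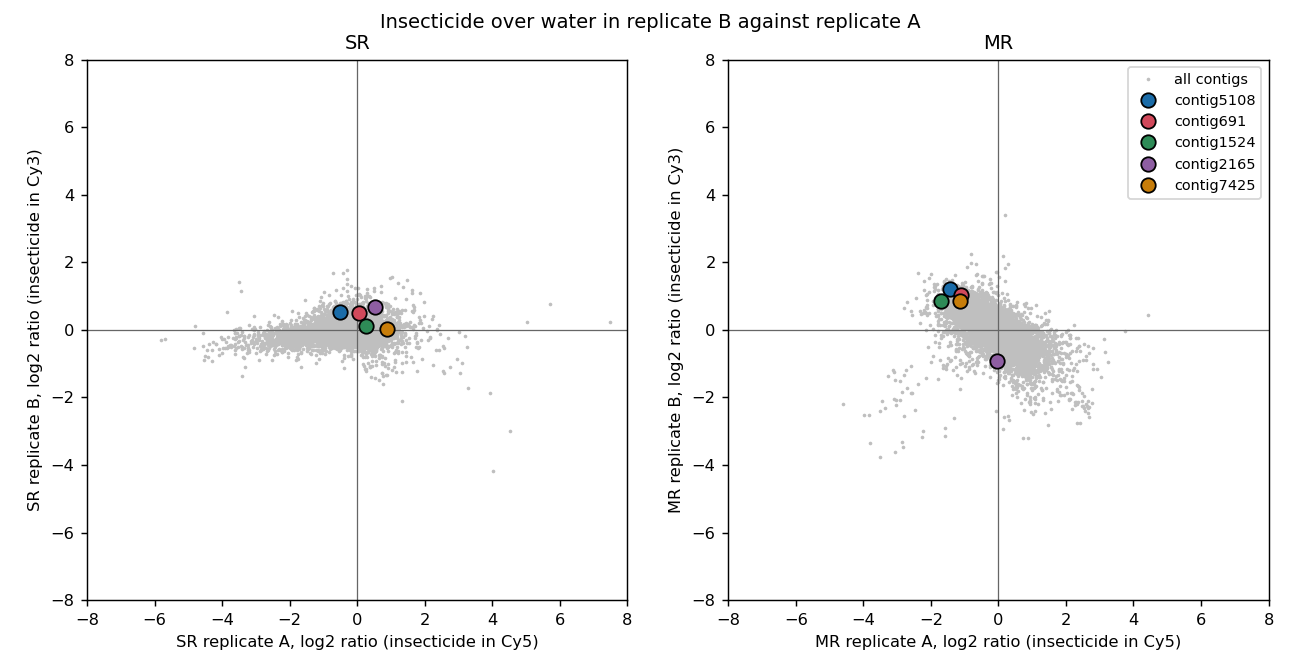
Log2 ratio of insecticide over water in replicate B (vertical axis) against replicate A (horizontal axis) over all contigs (grey), for SR and MR, with the 5 contigs in colour. In MR, contig5108, contig691, contig1524 and contig7425 lie in the upper left part of the cloud, between -1.70 and -1.11 in replicate A, and contig2165 lies apart from them at -0.05 and -0.93.

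The response in SR was set against that in MR in one limma fit of all 7 replicates. The difference was 1.14 for probe M_persicae2165a, with a 95% interval of -0.09 to 2.37, and 1.04 for probe M_persicae2165b, with an interval of -0.33 to 2.40. For the other probes it lay between 0.11, for fatty acid synthase, and 0.67, for probe M_persicae1524b. The adjusted p was 0.999996 for each of the 8 probes, and 0 of them had an unadjusted P under 0.05. None was called, and neither was any other probe (0%). Over the array the adjusted p went down to 0.060, and an unadjusted P under 0.05 was found for 240 probes. The SR and MR ratios did not overlap for 2 of the 8 probes, both of contig2165, as was the case for 14.1% of all probes. For fatty acid synthase the interval ran from -1.95 to 2.18, so that a doubling in either direction lay inside it.

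Levels were also set side by side within each contig. In water-treated aphids, fatty acid synthase (contig5108) had a log2 level of 9.87 and 8.68 in MR replicates A and B, against 8.47 and 8.74 in SR. The trifunctional enzyme beta subunit (contig691) had 12.16 and 10.99 in MR, against 10.998 and 11.29 in SR. The very long chain acyl-CoA enzyme (contig1524) had 11.47 and 9.66 in MR, against 9.35 and 10.08 in SR. The glycogenin-like contig (contig7425) had 9.86 and 8.37 in MR, against 8.39 and 8.84 in SR. In each of these 4 contigs MR replicate A was the highest of all 7 replicates, and MR and SR overlapped. Their mean order was MR, SR and then S, with overlapping ranges between MR and SR and between SR and S. The water-treated level in S is part of the ratio on which the contigs were selected. A low place of S was thus favoured by the selection and is given as a description.

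The fatty acid binding protein had the other order. Contig2165 had a water-treated level of 11.48 and 11.57 in MR, against 13.04 and 11.68 in SR, with 12.00, 13.25 and 12.28 in S. Both MR replicates were below both SR replicates, but only just below SR replicate B. In insecticide-treated aphids it had 11.43 and 10.63 in MR, against 13.56 and 12.35 in SR, with 13.81, 13.58 and 13.84 in S. Both MR values were below both SR values there. The highest SR value, 13.56, was next to the lowest S value, 13.58. The S level is part of the ratio on which the contig was selected, so a high place of S was favoured by the selection. No test was run on that channel. MR and SR did not overlap for 2 of the 8 probes in the water-treated channel, as for 26.4% of all probes, and for the same 2 probes in the insecticide-treated channel, as for 27.6%. At 2 of 8, the count is near these shares. In whole aphids, fewer cells of a type and less RNA per cell cannot be told apart.

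The MR minus SR difference in the water-treated level was -0.79 for probe M_persicae2165a, with a 95% interval of -2.21 to 0.64, and -0.89 for probe M_persicae2165b, with an interval of -2.44 to 0.67. It was 0.67 for probe M_persicae5108a, with an interval of -0.86 to 2.21, and 0.93 for probe M_persicae1524b, with an interval of -1.10 to 2.96. The remaining probes lay between 0.36 and 0.77. The limma fit, with the dye of the channel as a term, gave an adjusted p of 0.95 for every one of the 8 and called none of them, against 0.0273% of all probes, and 0 of the 8 had an unadjusted P under 0.05. Without MR replicate A, the difference was -0.13 for contig5108, -0.30 for contig691, -0.43 for contig1524 and -0.52 for contig7425, and without SR replicate A it was 0.18 for contig2165, so that the direction rested on 1 replicate in each.

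**Figure D4:**
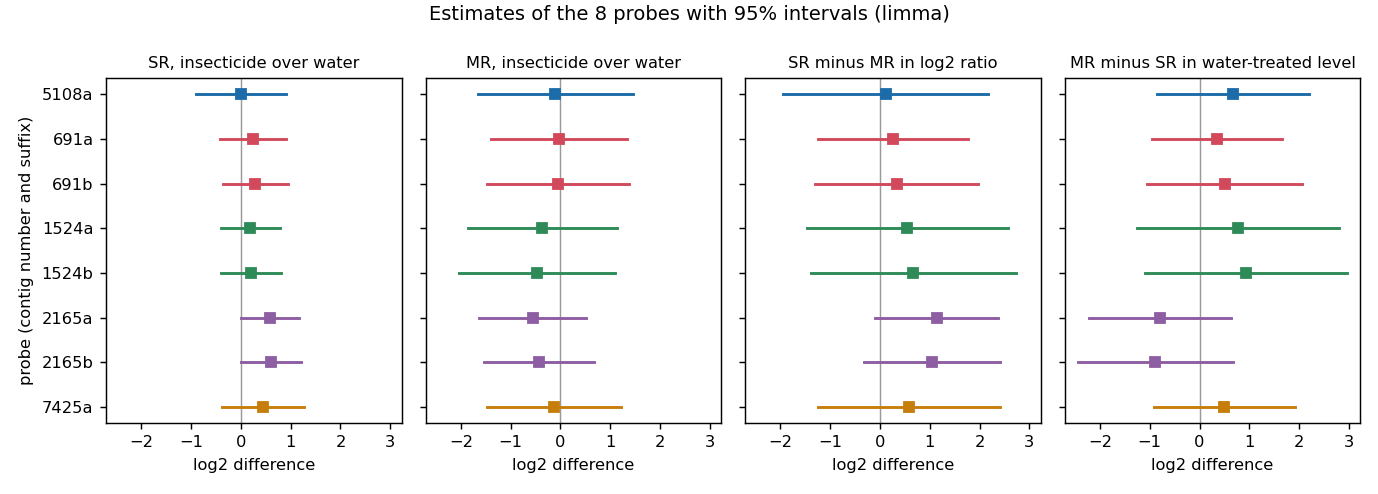
Estimates (squares) with 95% intervals (lines) of the 8 probes on the log2 scale, for insecticide over water in SR and in MR, for the SR minus MR difference in that ratio and for the MR minus SR difference in water-treated level. All intervals but that of probe M_persicae2165b in SR, 0.0030 to 1.21, contain 0.

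Detection differed among the contigs. All probes of contig691 and contig2165 were well above background in both channels on all 8 arrays, as were 83.5% of all probes. Probe M_persicae5108a was so on 6 of 8 arrays in the insecticide-treated channel and on 6 of 8 in the water-treated channel. It fell short in insecticide-treated RNA in SR replicate A and the repeat array of MR replicate A, and in water-treated RNA in S replicates A and B. Probes M_persicae1524a, M_persicae1524b and M_persicae7425a were detected on 8 of 8 arrays in the insecticide-treated and on 7 of 8 in the water-treated channel. No spot of the 8 probes was marked as an outlier.

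Both probes of a contig gave like ratios. Over contig691, contig1524 and contig2165 and the 7 replicates, probes a and b differed by a median of 0.08 and at most by 0.41, the latter for contig691 in S replicate C. Between contigs, the mean absolute difference in log2 ratio over the 7 replicates was 0.24 for contig1524 and contig7425, 0.25 for contig5108 and contig691, and at most 0.43 among the 4 contigs other than contig2165. Against contig2165 it lay between 0.67 and 0.80. The fatty acid binding protein was thus the least like the others, and it parted from them in MR.

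Of the 8363 contigs that were well above background in both channels on all arrays, those most like each of the 5 were found by the same measure. Contig4358, described as a DEAD box RNA helicase, was nearest to fatty acid synthase at 0.13, against a median of 1.02 over all the contigs compared. Contig6756, with no description, and contig15439, an unknown protein, followed, both at 0.13. Contig7876 was nearest to the trifunctional enzyme beta subunit at 0.13, followed by contig9421 at 0.14 and contig1115 at 0.15. Contig4277, described as cg32486, was nearest to the very long chain acyl-CoA enzyme at 0.12, before contig9305 at 0.13 and contig6631 at 0.14. For the fatty acid binding protein the nearest contigs were farther off, contig773 at 0.27, contig1305 at 0.31 and contig559 at 0.32. For the glycogenin-like contig they were contig3840 at 0.18, contig7065 at 0.18 and contig2522 at 0.19. All points share arrays and dyes, and the measure includes the S replicates on which the 5 contigs were selected. The nearest of so many contigs lies below the median by construction, so the median gives only the scale.

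The study's S list holds 6 other lipid contigs with 11 probes, which were likewise chosen on S. Of these 11 probes, 0 were past both limits in SR and 0 in MR, in either direction. Their median log2 ratio was 0.66 in SR and -0.22 in MR, against 0.27 and -0.25 for the 8 probes and 0.01 and 0.00 for all probes. Contig1020, a biotin-dependent carboxylase by its description, had 0.13 and 0.27 in SR and -1.22 and 1.26 in MR. Contig3613, a monoacylglycerol acyltransferase, which in mammals joins fatty acids to monoacylglycerol, had 0.97 and 0.24 in SR and -0.11 and 0.76 in MR. Contig1452, described as the protein takeout, a carrier of small hydrophobic molecules known from *Drosophila*, had 1.03 and 0.25 in SR and -0.16 and -0.37 in MR. The second takeout contig, contig164, had 2.34 and -0.59 in SR and -0.64 and 0.37 in MR. Contig3160, with a CRAL-TRIO domain that binds small lipophilic molecules, had 1.94 and 0.05 in SR and -0.29 and -0.27 in MR. Contig7922, a saposin, which in mammals helps lysosomal enzymes to break down sphingolipids, had -3.08 and -0.20 in SR and -0.996 and 0.16 in MR. Of the 6 contigs, 4 (contig1020, contig3613, contig164 and contig7922) were below 0 in MR replicate A and above 0 in replicate B, as were 7 of the 11 probes and 38.3% of all probes. The adjusted p of limma was 0.9998 for all 6 contigs in SR and 0.99997 in MR.

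Contigs of other tissues, which were also chosen on S, moved with these ratios in some replicates. The median log2 ratio of the 9 probes of the 5 muscle contigs (troponin c, flightin, tropomyosins and paramyosin) was -0.98 and 0.42 in SR replicates A and B and -0.998 and 0.62 in MR replicates A and B. Over the 8 lipid and glycogen probes it was 0.27 and 0.49 in SR and -1.14 and 0.87 in MR. Of the 5 muscle contigs, 3 were below 0 in MR replicate A and above 0 in replicate B, and 2, troponin c and flightin, were the other way round. Over the 9 muscle probes 5 had the first pattern, against 38.3% of all probes and 169 of the 257 S list probes outside the 5 contigs. The 9 gut digestion contigs (cathepsin B and alpha-glucosidase) had 15 probes. Their median was 1.01 and 0.63 in SR and -3.35 and -2.18 in MR. Of the 15 probes, 4 were called higher in SR, against 0.164% of all probes, and 12 lower in MR, against 0.622%. These calls use the unadjusted P. The lowest adjusted p of limma among these contigs was 0.9998 in SR and 0.42 in MR. The 3 probes of the 2 salivary contigs had medians of 0.62 and 0.09 in SR and 0.67 and -1.26 in MR, where the contigs differed. In MR replicates A and B, the salivary peptide contig3597, with 2 probes, had 0.69 and -1.31. The salivary maltase contig8379, with 1 probe, had -1.78 and 0.63. The rest of the S list, 257 probes of 178 contigs, had a median of 0.47 and 0.22 in SR and -0.98 and 0.49 in MR. The part of these tissues in the lipid and glycogen ratios was not tested. Glyceraldehyde-3-phosphate dehydrogenase (contig1056), the endogenous control of the study, stayed between -0.06 and 0.19 in all replicates.

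**Figure D5:**
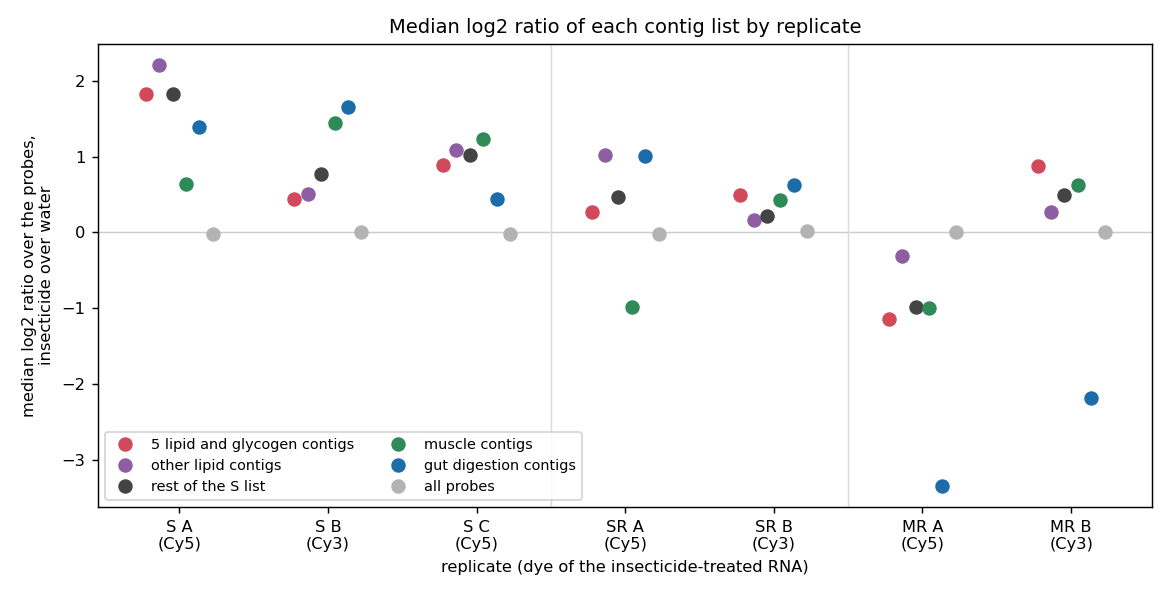
Median log2 ratio of insecticide over water (vertical axis) over the probes of each contig list, by replicate and dye of the insecticide-treated RNA (horizontal axis). The medians of the lipid and glycogen contigs, the muscle contigs and the rest of the S list are below 0 in MR replicate A and above 0 in MR replicate B, whereas the gut digestion contigs are at -3.35 and -2.18.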

How the data were processed

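RNA of pirimicarb-treated and water-treated aphids was compared on 8 two-colour Agilent arrays. The authors deposited the scanner output, which holds the median and the local background signal of each spot as raw, linear intensities, and processed intensities after the software's own background and dye correction. A table for each genotype, also from the authors, holds the log2 fold-change, mean, moderated t, P and adjusted p of their limma fit, and was not used. Columns of other samples numbered 0. The version of limma used by the authors is not given in the sources used here.

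Arrays were background-corrected with normexp (offset 50) and loess-normalized, control spots having weight 0. Spots marked as outliers were left out, and ratios were turned to insecticide over water by the dyes in the labels. Both arrays of MR replicate A were averaged. limma 3.58.1 under R 4.3.3 fitted one linear model per genotype (lmFit, eBayes), as in the methods, with Benjamini-Hochberg adjustment over 14628 probes. A probe was called at a log2 ratio past 1 in size and an unadjusted P of 0.05. The SR minus MR difference came from a fit of all 7 replicates, and levels from each channel after Aquantile normalization, with its dye as a term; there a probe was called at an adjusted p of 0.05. The labels call the replicates biological. The number of arrays limits the precision. The scripts were tested on simulated data.

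Named contigs were the 5 and their probes, the other lipid contigs of the study's S list, the 3 most alike contigs of each, the contigs of the marker lists and the endogenous control. The contigs and lists were chosen with earlier results of these data known, and the lists come from the study's S list, which was chosen on these arrays. Their names come from the supplementary list of the study. The reference gene table, of assembly MPER_G0061.0, matched 0 of 10489 contig names, and neither coordinates nor sequences are printed. Alternatives were other background corrections, normalizations, spot filters and fits, other uses of the MR arrays and of S replicate A, and leaving out each replicate. The plots were made in Python 3.11.15 with matplotlib 3.10.9.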

Additional observations from a re-analysis of the deposited data

Results flagged for a closer look

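Of the 11 lipid and glycogen contigs with values by replicate, 4 had every replicate of one genotype above 0 and every replicate of another below 0. All 11 were selected as higher in S, so this count, which includes S, cannot be set against the 13.3% of all contigs. Between SR and MR alone, whose arrays were not used to choose the contigs, it was 3 of the 11, against 4.03% of all contigs. Over all probes, however, S replicate A correlated at 0.39 with SR replicate A and at -0.47 with the first MR replicate A array. The selection on S can thus favour these signs in SR and MR, so the share of all contigs is not a neutral background here either. The fatty acid binding protein, contig2165, was above 0 in all S and SR replicates and below 0 in both MR replicates. Its mean log2 ratio was 1.73 higher in S than in MR, a difference that was not tested because the contig was selected on S, and 1.09 higher in SR than in MR, where the limma fit gave an adjusted p of 0.999996 for both probes (0.31 at the lowest over the alternatives for any of the 5 contigs). The takeout contig1452 had the same signs, with differences of 1.55 between S and MR (not tested) and 0.90 between SR and MR, at an adjusted p of 0.999996. So did contig3160, the CRAL-TRIO contig, with 1.70 between S and MR (not tested) and 1.27 between SR and MR, at an adjusted p of 0.999996. The saposin contig7922 was above 0 in all S replicates and below 0 in both SR replicates, and its S minus SR difference of 2.70 was not tested because it was selected on S.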

How the results depend on the processing

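The results are limited by the 2 or 3 replicates per genotype, and those in S also by the dim water-treated spots of S replicate A. Under the alternatives that keep all replicates, the median of the 5 contigs kept its direction in S, SR and MR. So it did in the SR minus MR and MR minus SR differences. Under the same alternatives, no probe of the 5 contigs was called in SR, MR or either difference, except 1 in SR with S replicate A used as SR. With single replicates left out, the median kept its direction in S and SR. Without MR replicate A it changed sign in the others, to 0.87 in MR, -0.67 for SR minus MR and -0.43 for MR minus SR in water-treated aphids. In S, 7 of the 8 probes were past both limits, but 3 with dim spots left out, 1 with an intensity trend and robust eBayes, 3 in one fit of all replicates, with or without a common dye term, and 0 with S replicate A used as SR. Leaving out single S replicates gave 0 (without A) to 7. The cause was not tested. The SR median of 0.27 was 0.45 with dim spots left out and 0.81 with S replicate A used as SR. Fatty acid synthase in SR (contig5108) was at -0.094 with plain background subtraction, -0.026 with no background correction and -0.17 with processed signals. Same-lettered replicates did not deviate together in every pair (correlations over probes from -0.37 to 0.50), so the letters were not taken as pairs. With the replicate letter as a term (replicate block), 0 of the 8 probes were called in either difference, and the medians were 0.58 for SR minus MR and 0.50 for MR minus SR in water-treated aphids.

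Leaving out SR replicate B or A gave a median of 0.27 or 0.49 in SR, and -0.51 or 0.52 for contig5108. Leaving out MR replicate B or A gave 5 or 1 called probes in MR, and ratios of -1.43 or 1.22 for contig5108, -1.11 or 1.03 for contig691, -1.70 or 0.87 for contig1524 and -1.13 or 0.86 for contig7425. The SR minus MR difference ranged over the left-out replicates from -1.21 to 1.44 for contig5108, -0.77 to 1.37 for contig691, -0.67 to 1.90 for contig1524 and -0.41 to 1.57 for contig7425. The MR minus SR water-treated difference ranged from -0.43 to 1.48 for the median, -0.13 to 1.48 for contig5108, -0.30 to 1.16 for contig691, -0.43 to 2.13 for contig1524, -1.85 to 0.18 for contig2165 and -0.52 to 1.52 for contig7425. Over all probes, the calls ranged under the alternatives that keep all replicates from 83 to 365 higher in S (250 here), from 0 to 115 higher (24) and 0 to 347 lower (140) in SR, and from 0 to 17 higher (2) and 57 to 140 lower (91) in MR, and from 0 to 7 lower (4) in the MR minus SR water-treated difference. With single replicates of the genotype left out, they ranged from 190 to 496 higher in S, from 13 to 115 higher and 11 to 1009 lower in SR, and from 131 to 410 higher and 478 to 831 lower in MR.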
